A study of Danio rerio with 18 samples.

Results

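Intestines of zebrafish homozygous for a chd8 mutation were set directly against intestines of germ-free wild-type zebrafish, both at 5 days after fertilization. The members were the 3 chd8-/- and the 3 germ-free (GF) intestine libraries of the 18 samples in the series, with their counts joined by gene ID over 32520 genes. Both groups were of the AB strain. The chd8-/- embryos came from parents mated in circulating system water and were kept in embryo medium with no sterilising step described, and 40 were collected. The GF embryos, labelled as germ free in place of a genotype and called wild type in the series title, came from parents mated in autoclaved system water. They were washed, held in medium with antibiotics, passed through polyvinylpyrrolidone and sodium hypochlorite and reared in sterile medium, and 30 were collected. Both groups were incubated at 28.5 degrees Celsius, and intestines were dissected by hand after storage in RNAlater, so a library holds the pooled tissue of many larvae. The labels do not describe the chd8 allele or the hour of collection, and do not say that replicates came from separate clutches, and the spread behind each p-value may therefore be technical only. Genotype, rearing and the table in which each group was counted change together between the groups and cannot be told apart.

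CHD8 is a chromodomain helicase that remodels nucleosomes and acts on transcription, and it is best known from autism and from its binding to beta-catenin. The larval zebrafish gut is an epithelium of absorptive enterocytes with scattered secretory and hormone-producing cells, and it meets its first microbes after hatching. Microbes in the lumen are known to act on immune genes, lipid uptake and renewal of this epithelium, and germ-free rearing removes them.

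The libraries held 30255757 to 34423472 counted reads each, and the 10 most abundant genes took 10.1% to 10.7% of them. Levels are given as CPM, counts scaled by the TMM-adjusted library size, which compare libraries for 1 gene and not genes with each other. Markers of absorptive epithelium were present in all 6 libraries: FABP2, the intestinal fatty acid binding protein, had 2189, 2227 and 1818 CPM in chd8-/- libraries, against 1647, 1922 and 1449 CPM in GF libraries (log2 fold change 0.31, SE 0.15, adjusted p = 0.204). Markers of exocrine pancreas, liver, skeletal muscle and skin were also high in both groups; for instance prss1, a trypsin of the pancreas, had 6069, 4402 and 3923 CPM in chd8-/- libraries, against 3317, 5918 and 3933 CPM in GF libraries. GF replicate 3 stood apart: the summed level of the brain and retina list was 52.9, 67.5 and 50.2 CPM in chd8-/- libraries, against 38.6, 38.3 and 1254 CPM in GF libraries, and that of the lens list was 7.11, 5.07 and 6.19 CPM in chd8-/- libraries, against 6.80, 5.65 and 707 CPM in GF libraries. The cone opsin opn1mw1 had 0, 0 and 0.204 CPM in chd8-/- libraries, against 0, 0 and 75.1 CPM in GF libraries. In bulk tissue, fewer cells of a type and less RNA per cell cannot be told apart.

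Of 20921 genes tested with edgeR's quasi-likelihood test, 2862 (13.7%) differed at an adjusted p under 0.05. In chd8-/- intestines 1466 genes (7.01%) were higher and 1396 (6.67%) were lower than in GF intestines. A change of at least 2-fold was reached by 1308 of them (6.25%), 548 higher (2.62%) and 760 lower (3.63%). The shares of 7.01% and 6.67% are the background for the counts in gene lists below. Changes of over 4-fold numbered 200 higher and 278 lower. Over all genes tested, log2 fold changes had a median of -0.04. Scaling by library size alone moved this median to -0.20, with 938 genes higher and 2270 lower. The changes below are relative to that shift. The groups did not overlap for 7326 genes (35.0%), 17.5% in each direction. Leaving out chd8-/- replicate 1, 2 or 3 lowered the number called to 1349, 1430 and 1328, leaving out GF replicate 1 or 2 to 1895 and 2273, and leaving out GF replicate 3 gave 3702, of which 2656 were among the 2862.

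**Figure D1:**
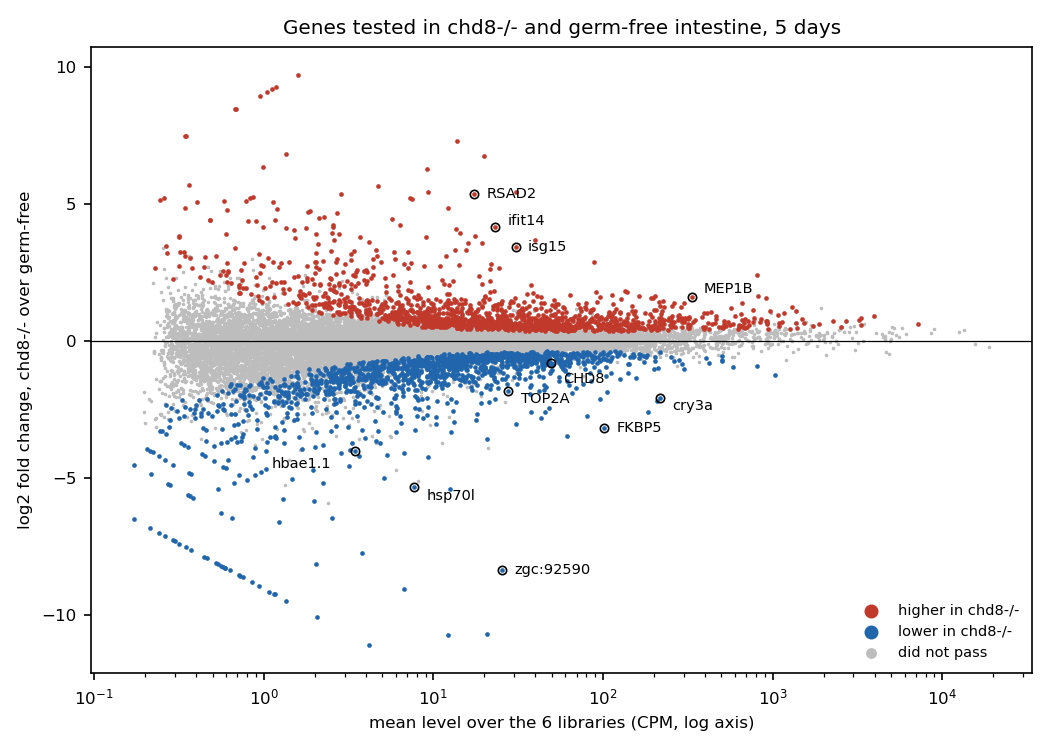
Each point is 1 of the 20921 genes tested, with its mean level over the 6 libraries (CPM, log axis) against its log2 fold change, chd8-/- over germ-free. Red points are the 1466 genes called higher and blue points the 1396 called lower; RSAD2 and isg15 lie above the cloud, and FKBP5, hsp70l and zgc:92590 lie below it.

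The targeted gene was lower but present. CHD8 had 32.2, 34.9 and 41.3 CPM in chd8-/- libraries, against 63.7, 58.7 and 65.1 CPM in GF libraries (log2 fold change -0.79, SE 0.12, adjusted p = 0.00365), and the groups did not overlap. The lower call held in each of the 6 fits that left out 1 library. With the allele not described in the labels, this level says nothing about the protein. Of the 10 chromodomain helicase genes tested, with the targeted gene counted among them, 4 fell (beside 6.67% of all genes) and 0 rose (beside 7.01%). Those that fell were chd6 (-0.96, adjusted p = 0.00117), CHD8, CHD4 (-0.75, adjusted p = 0.0120) and CHD1 (-0.56, adjusted p = 0.0233). All 10 had a log2 fold change below 0 (beside 54.0% of all genes), with 0 higher at an unadjusted p under 0.05 in edgeR and 0 in DESeq2 and limma-voom. CHD4 lost its call without chd8-/- replicate 1, chd8-/- replicate 2 or chd8-/- replicate 3 (adjusted p = 0.0531, 0.0653 and 0.0509), and CHD1 without chd8-/- replicate 1, chd8-/- replicate 2, chd8-/- replicate 3 or GF replicate 1 (adjusted p = 0.0874, 0.0920, 0.0902 and 0.0596). The list gave 2, 2 and 2 lower genes without chd8-/- replicates 1, 2 and 3 in turn, 5 without GF replicate 3 and 7 with no scaling beyond library size. Among 91 chromatin regulators, 2 rose and 9 fell (9.89% lower, beside 6.67% of all genes; median log2 fold change -0.22; 2, 2 and 2 lower without chd8-/- replicates 1, 2 and 3 in turn, and 22 with library size only). Without GF replicate 3 the median of that list was -0.13, and its higher calls numbered 1 without any other single library. Of the 2 that rose, SMARCD2 had a log2 fold change of 0.73 (adjusted p = 0.00640). DNMT1, which copies DNA methylation after replication and is counted in the DNA replication list below as well, had 21.2, 21.7 and 23.3 CPM in chd8-/- libraries, against 85.3, 61.9 and 65.1 CPM in GF libraries (-1.68, adjusted p = 0.000222). EZH2, the methyltransferase of the Polycomb complex, had 11.2, 9.70 and 8.16 CPM in chd8-/- libraries, against 30.8, 18.6 and 21.5 CPM in GF libraries (-1.28, adjusted p = 0.00446).

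Genes induced by interferon were the clearest group that stood higher in chd8-/- intestines. Interferons bind receptors that act through STAT and IRF factors to switch on antiviral genes, and in fish larvae these are known to respond to viruses and to microbes. Of 57 genes tested, 37 rose and 0 fell (64.9% higher, beside 7.01% of all genes), with a median log2 fold change of 1.25. The lower genes numbered 1 at an unadjusted p under 0.05 in edgeR, 1 in DESeq2, 0 in limma-voom and 1 in edgeR without GF replicate 3. The summed level of the list was 1014, 1108 and 1036 CPM in chd8-/- libraries, against 452, 507 and 366 CPM in GF libraries. The groups were well separated, and GF replicate 2 was the highest of the GF libraries.

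Among antiviral effectors, RSAD2, the radical-SAM enzyme viperin, had 29.1, 36.0 and 36.3 CPM in chd8-/- libraries, against 0.324, 1.84 and 0.349 CPM in GF libraries (log2 fold change 5.38, SE 0.60, adjusted p = 0.00304). CMPK2, a nucleotide kinase encoded beside RSAD2 in many vertebrates, had 11.3, 9.86 and 11.6 CPM in chd8-/- libraries, against 0.297, 1.08 and 0.145 CPM in GF libraries (log2 fold change 4.45, SE 0.58, adjusted p = 0.00301). GF replicate 2 was the highest GF library for both genes, and without it the log2 fold changes were 6.65 for RSAD2 and 5.60 for CMPK2. The IFIT proteins bind foreign RNA: ifit14 had 44.0, 45.8 and 41.3 CPM in chd8-/- libraries, against 1.43, 3.38 and 2.53 CPM in GF libraries (log2 fold change 4.17, SE 0.27, adjusted p = 0.000107). For ifit15 the levels were 28.8, 41.3 and 37.0 CPM in chd8-/- libraries, against 3.24, 3.91 and 1.92 CPM in GF libraries (log2 fold change 3.57, SE 0.26, adjusted p = 0.000180). The ubiquitin-like modifier isg15 had 59.3, 59.5 and 49.0 CPM in chd8-/- libraries, against 4.15, 9.45 and 1.86 CPM in GF libraries (log2 fold change 3.45, SE 0.56, adjusted p = 0.0129). Its groups did not overlap, but its call was lost without chd8-/- replicate 1, chd8-/- replicate 3 or GF replicate 1 (adjusted p = 0.0542, 0.0558 and 0.0517), and its log2 fold change was 4.21 without GF replicate 2.

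Some sensors and transcription factors of the pathway were also among the 37. IRF7, the factor that amplifies interferon production, had 10.6, 12.9 and 11.0 CPM in chd8-/- libraries, against 2.97, 4.17 and 2.59 CPM in GF libraries (log2 fold change 1.83, SE 0.22, adjusted p = 0.000901). The cytosolic RNA sensor IFIH1 had 13.9, 13.8 and 14.3 CPM in chd8-/- libraries, against 6.18, 6.50 and 4.97 CPM in GF libraries (log2 fold change 1.25, SE 0.16, adjusted p = 0.00125). DHX58, a related helicase, had a log2 fold change of 2.39, adjusted p = 0.00159. The fish kinase pkz, which binds Z-form nucleic acid, had 7.97, 7.60 and 7.31 CPM in chd8-/- libraries, against 0.674, 1.74 and 1.13 CPM in GF libraries (2.69, adjusted p = 0.00100). SOCS1, a feedback inhibitor of cytokine signalling, rose by a log2 fold change of 1.03, adjusted p = 0.00644. The dynamin-like GTPase mxa rose as well (2.94, adjusted p = 0.00695). Among the 20 that did not pass were irf9 (0.10, adjusted p = 0.655), STING1 (0.06, adjusted p = 0.904) and parp9 (-0.05, adjusted p = 0.883). These genes were chosen from the list after their values were seen.

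Of the 14 named genes with the largest increase, 8 belonged to the interferon list, among them herc56.1 (5.19), ifi27.6 (5.21), ifit8 (4.66), helz2a (3.93) and ifi27.2 (4.09). Without GF replicate 2 these log2 fold changes were 6.98, 6.27, 5.49, 4.87 and 5.11. The ifi27, ifit and herc56 genes are families of close copies, so reads could have been split between members. The call of ifi27.2 was lost without chd8-/- replicate 1, chd8-/- replicate 2, chd8-/- replicate 3 or GF replicate 1 (adjusted p = 0.0516, 0.0572, 0.0740 and 0.0588). The number of interferon genes called higher was 29, 29 and 26 without chd8-/- replicates 1, 2 and 3 in turn, and 33, 35 and 36 without GF replicates 1, 2 and 3; 25 of the 37 held in all 6 fits. Among marker genes of immune cells, 1 of 31 for macrophages, 2 of 25 for neutrophils and 0 of 17 for lymphocytes were called higher, beside 7.01% of all genes, and 0 of these calls held in all 6 fits without 1 library. For lymphocytes, 1 gene was higher at an unadjusted p under 0.05 in edgeR, and 0 were called higher in DESeq2 and limma-voom. Summed levels of the macrophage list were 2786 to 4905 CPM in chd8-/- libraries, against 2463 to 2776 CPM in GF libraries. Those of the neutrophil list were 402 to 415 CPM in chd8-/- libraries, against 322 to 359 CPM in GF libraries. The groups did not overlap in either list, but did in the lymphocyte list (62.8 to 79.5 CPM in chd8-/- libraries, against 60.4 to 98.0 CPM in GF libraries). Median log2 fold changes were 0.24, 0.07 and -0.13. The part of cell numbers in the interferon result was not tested.

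**Figure D2:**
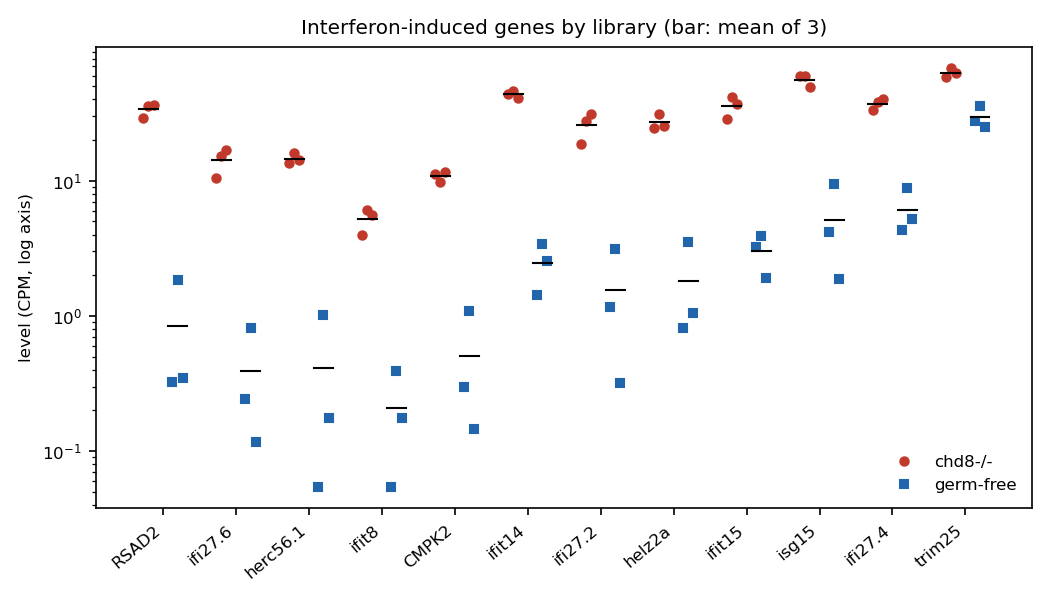
Levels (CPM, log axis) of the 12 named interferon-induced genes in each library, with chd8-/- (red circles) left of germ-free (blue squares) and black bars at the mean of 3. In each of the 12 genes the lowest chd8-/- library lies above the highest germ-free library, and the middle square, GF replicate 2, is the highest germ-free value for most. Of the 12, 8 were named as largest increases, picked from genes whose groups did not overlap, so their separation is not a further result. Over all genes tested, 17.5% did not overlap in this direction.

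Other immune genes moved in smaller numbers. Of 55 genes tested, 8 rose and 1 fell in the inflammation list (14.5% and 1.82%, beside 7.01% and 6.67% of all genes). The number higher was 3, 6 and 4 without chd8-/- replicates 1, 2 and 3 in turn, and 5, 6 and 9 without GF replicates 1, 2 and 3. The neutrophil-attracting chemokine cxcl8b.3 had 27.1, 22.8 and 20.6 CPM in chd8-/- libraries, against 9.36, 10.9 and 7.82 CPM in GF libraries (log2 fold change 1.33, SE 0.17, adjusted p = 0.00128). The cytokine il1b stood near 1 CPM or below and did not pass, with 0.960, 0.278 and 0.816 CPM in chd8-/- libraries, against 0.647, 0.755 and 1.08 CPM in GF libraries (-0.27, adjusted p = 0.775). Serum amyloid A (SAA2) was below 1 CPM in each library and was not tested. In antigen presentation, 5 of 31 genes rose and 2 fell (16.1% and 6.45%, the latter near the 6.67% of all genes). The class I gene mhc1zea had 17.4, 19.9 and 18.6 CPM in chd8-/- libraries, against 3.51, 4.76 and 3.69 CPM in GF libraries (2.23, adjusted p = 0.000120). In contrast, mhc1zba had 38.1, 55.1 and 44.1 CPM in chd8-/- libraries, against 133, 149 and 93.3 CPM in GF libraries (-1.45, adjusted p = 0.00236). Class I genes are polymorphic and vary between fish in copy number, and their counts may be split between copies.

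Epithelial defence genes rose in 7 cases and fell in 2 of 26 tested (26.9% and 7.69%, beside 7.01% and 6.67% of all genes). The dual oxidase duox, which makes hydrogen peroxide at the gut surface, had 6.53, 5.87 and 8.26 CPM in chd8-/- libraries, against 0.998, 1.21 and 1.19 CPM in GF libraries (log2 fold change 2.60, SE 0.25, adjusted p = 0.000324). The alkaline phosphatase alp3 had 192, 197 and 178 CPM in chd8-/- libraries, against 66.9, 75.2 and 54.2 CPM in GF libraries (1.53, adjusted p = 0.000295). The annexin anxa1b, also in the skin list, had 40.2, 42.1 and 33.5 CPM in chd8-/- libraries, against 6.07, 4.83 and 5.43 CPM in GF libraries (2.82, adjusted p = 4.45e-05). All 3 genes had groups that did not overlap and held without any 1 library. They were among the genes of smallest adjusted p in the list, so their separation is not a further result. Over all genes tested, 17.5% did not overlap in this direction. The antimicrobial peptide gene leap2 was among those that fell (-0.91, adjusted p = 0.00449), and was chosen after its value was seen.

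DNA replication and cell division genes stood lower in chd8-/- intestines. Of 95 genes tested, 0 rose and 77 fell (81.1% lower, beside 6.67% of all genes), and all 95 had a log2 fold change below 0 (beside 54.0% of all genes), with a median of -1.21. No gene of the list was higher at an unadjusted p under 0.05 in edgeR (0), or in DESeq2 (0) or limma-voom (0). The summed level of the list was 883, 839.7 and 819 CPM in chd8-/- libraries, against 1982, 1448 and 1849 CPM in GF libraries, with no overlap between the groups. TOP2A, the topoisomerase of dividing cells, had 12.7, 11.9 and 12.3 CPM in chd8-/- libraries, against 46.6, 36.4 and 46.6 CPM in GF libraries (log2 fold change -1.81, SE 0.14, adjusted p = 0.000120). PCNA, the sliding clamp of the replication fork, had 56.2, 51.8 and 48.3 CPM in chd8-/- libraries, against 117, 93.1 and 107 CPM in GF libraries (log2 fold change -1.02, SE 0.12, adjusted p = 0.00101). Thymidine kinase TK1 had 3.52, 3.77 and 3.26 CPM in chd8-/- libraries, against 13.1, 11.7 and 11.7 CPM in GF libraries (-1.79, adjusted p = 0.000295). The condensin subunit NCAPG had 5.12, 4.60 and 4.86 CPM in chd8-/- libraries, against 13.6, 12.1 and 15.1 CPM in GF libraries (-1.49, adjusted p = 0.000576). For each of these genes the highest chd8-/- library lay below the lowest GF library. TOP2A, TK1 and NCAPG were named for a small adjusted p in the list, so their separation is not a further result. Over all genes tested, 17.5% did not overlap in this direction. The number called lower was 48, 49 and 47 without chd8-/- replicates 1, 2 and 3 in turn, and 55, 75 and 80 without GF replicates 1, 2 and 3.

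The cell cycle inhibitor cdkn1a (p21) had 61.3, 69.6 and 51.3 CPM in chd8-/- libraries, against 17.3, 9.95 and 16.3 CPM in GF libraries (log2 fold change 2.06, SE 0.22, adjusted p = 0.000746). The cyclin gene CCNG1 had 615, 626 and 588 CPM in chd8-/- libraries, against 339, 325 and 295 CPM in GF libraries (log2 fold change 0.93, SE 0.11, adjusted p = 0.00104). For both genes the lowest chd8-/- library lay above the highest GF library. Both were named for a small adjusted p in 1 of the gene lists, so this separation is not a further result. Over all genes tested, 17.5% did not overlap in this direction.

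The circadian clock list moved in both directions. In vertebrates, BMAL, CLOCK and NPAS2 proteins activate transcription of period and cryptochrome repressors, and REV-ERB (NR1D) repressors and ROR activators act on the BMAL genes in turn. Of 45 genes tested, 9 rose and 18 fell (20.0% higher and 40.0% lower), and 22 of the 27 calls held in all 6 fits without 1 library. With the hour of collection not given, time of day and the groups cannot be told apart.

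All 6 tested IDs of the BMAL, CLOCK and NPAS2 genes fell. One of the 2 gene IDs named BMAL1 had 0.960, 1.51 and 2.04 CPM in chd8-/- libraries, against 11.7, 19.0 and 11.6 CPM in GF libraries (-3.23, adjusted p = 0.000452). The other had 3.46, 2.32 and 3.19 CPM in chd8-/- libraries, against 13.8, 14.3 and 11.7 CPM in GF libraries (-2.15, adjusted p = 0.000304). The IDs named CLOCK fell by smaller amounts (-1.45, adjusted p = 0.000615, and -0.79, adjusted p = 0.00426). Their paralogue npas2 fell (-1.51, adjusted p = 0.000707), as did bmal2 (-1.46, adjusted p = 0.00275) and the ROR receptor gene rorcb (-3.57, adjusted p = 0.000359).

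Period, cryptochrome and REV-ERB genes were split. PER1 had 92.5, 103 and 90.0 CPM in chd8-/- libraries, against 47.6, 53.9 and 46.2 CPM in GF libraries (0.95, adjusted p = 0.000991), with a further PER1 ID that did not pass. PER3 rose (0.85, adjusted p = 0.00218), as did CRY2 (1.11, adjusted p = 0.000427). BHLHE41, a repressor of CLOCK-driven transcription, had 139, 153 and 132 CPM in chd8-/- libraries, against 36.3, 41.8 and 44.7 CPM in GF libraries (log2 fold change 1.79, SE 0.12, adjusted p = 9.47e-05). The REV-ERB gene NR1D1 rose (0.88, adjusted p = 0.00555). Its relative nr1d4b had 7.04, 4.14 and 6.22 CPM in chd8-/- libraries, against 0.998, 1.12 and 1.19 CPM in GF libraries (2.39, adjusted p = 0.000901). In contrast, cry3a had 82.8, 89.1 and 78.8 CPM in chd8-/- libraries, against 425, 321 and 302 CPM in GF libraries (log2 fold change -2.06, SE 0.15, adjusted p = 0.000114). Both cry3b (-1.50, adjusted p = 0.000473) and cry4 (-1.38, adjusted p = 0.000354) fell. Of the output regulators, the activator dbpb had 178, 174 and 166 CPM in chd8-/- libraries, against 50.3, 57.0 and 53.0 CPM in GF libraries (log2 fold change 1.69, SE 0.11, adjusted p = 6.42e-05). The repressor nfil3-5 had 2.69, 2.16 and 3.02 CPM in chd8-/- libraries, against 17.6, 19.0 and 17.6 CPM in GF libraries (log2 fold change -2.78, SE 0.17, adjusted p = 5.98e-05). PER2 (-0.19, adjusted p = 0.323) and both IDs named CRY1 did not pass. Members beyond dbpb, nfil3-5, BHLHE41 and cry3a were chosen after their values were seen.

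**Figure D3:**
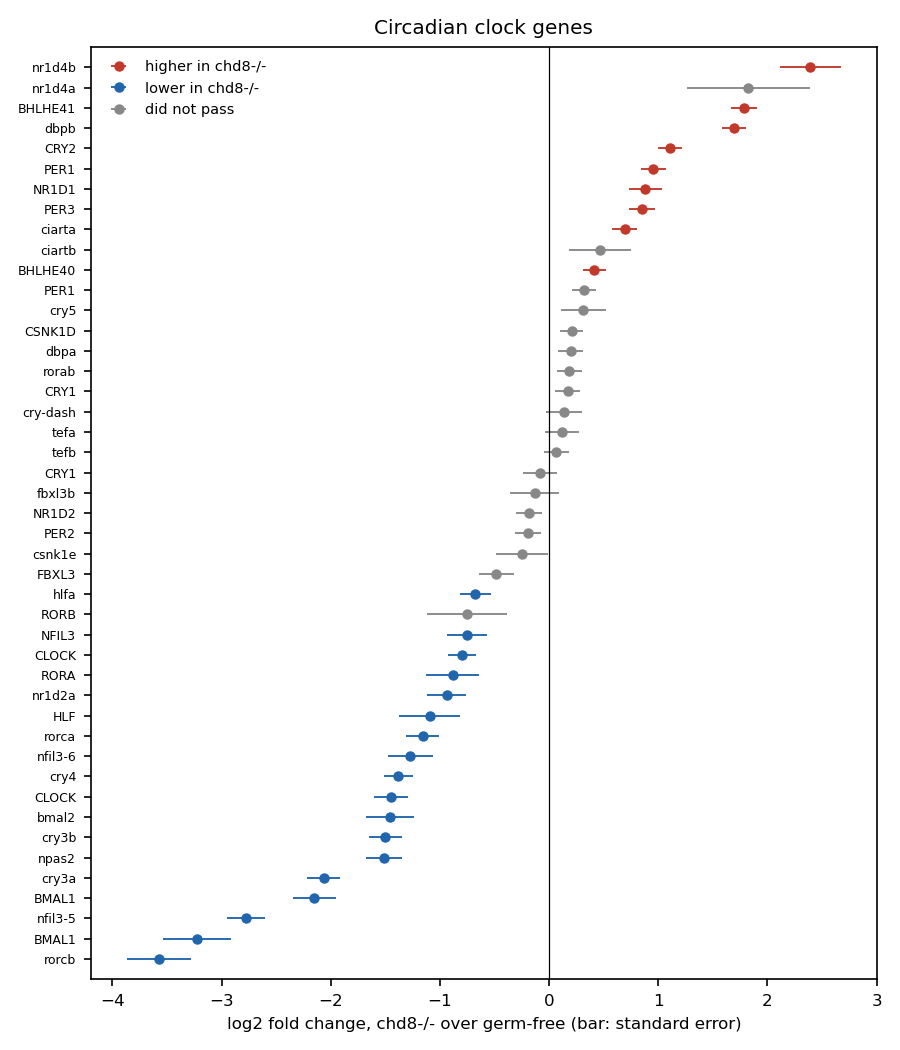
Log2 fold changes, chd8-/- over germ-free, of the 45 clock genes tested, with standard errors as bars; symbols that occur more than once mark separate gene IDs. The 9 genes in red were called higher, led by nr1d4b (2.39), and the 18 in blue were called lower, led by rorcb (-3.57).

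Some genes of absorptive enterocytes stood higher in chd8-/- intestines. Of 45 genes tested, 18 rose and 0 fell (40.0% higher), with a median log2 fold change of 0.41, and 14 of the 18 held in all 6 fits without 1 library. Lower genes numbered 3 at an unadjusted p under 0.05 in edgeR, 1 in DESeq2 and 0 in limma-voom. The brush border peptidase MEP1B had 454, 522 and 529 CPM in chd8-/- libraries, against 139.9, 169 and 185 CPM in GF libraries (log2 fold change 1.61, SE 0.14, adjusted p = 0.000228). Its partner gene mep1a.1 had 323, 359.8 and 314 CPM in chd8-/- libraries, against 113, 131 and 113 CPM in GF libraries (log2 fold change 1.48, SE 0.12, adjusted p = 0.000183). SLC15A1, the transporter of small peptides, had under 1 of its 2 IDs 404, 429 and 378 CPM in chd8-/- libraries, against 155, 174 and 187 CPM in GF libraries (1.23, adjusted p = 0.000371). The other ID did not pass. The aminopeptidase ANPEP (1.25, adjusted p = 0.000901) and the trehalase TREH (1.09, adjusted p = 0.00512) rose too, and were chosen after their values were seen. Without GF replicate 3, 18 rose and 2 fell. Summed levels of other tissues were as follows. The skin list was 17282 to 18337 CPM in chd8-/- libraries, against 14732 to 15284 CPM in GF libraries, the pronephros list 7427 to 8127 CPM in chd8-/- libraries, against 5376 to 6129 CPM in GF libraries, and the exocrine pancreas list 34694 to 52350.4 CPM in chd8-/- libraries, against 24322 to 45619.9 CPM in GF libraries. The groups overlapped in the pancreas list and not in the skin and pronephros lists. Sums are set mostly by the most abundant genes. Median log2 fold changes were -0.03 for skin (19 genes above 0 and 23 below) and 0.08 for pronephros (30 above and 16 below). For exocrine pancreas the median was 0.33 (21 above and 12 below). The part of these tissues in the enterocyte result was not tested.

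Transporters and detoxifying enzymes of the epithelium followed in part. Among 77 solute transporters 20 rose and 5 fell (26.0% and 6.49%, beside 7.01% and 6.67% of all genes). The share that fell was near that of all genes. The rise counted 15, 12 and 13 without chd8-/- replicates 1, 2 and 3 in turn, and 16, 17 and 20 without GF replicates 1, 2 and 3. The fall counted 4, 3 and 2 without chd8-/- replicates 1, 2 and 3 in turn, and 4, 3 and 8 without GF replicates 1, 2 and 3. The water channel AQP8 had 314, 309 and 312 CPM in chd8-/- libraries, against 113, 114 and 125 CPM in GF libraries (log2 fold change 1.41, SE 0.11, adjusted p = 0.000120). The amino acid transporter SLC6A18 had 97.0, 90.2 and 106 CPM in chd8-/- libraries, against 23.0, 34.4 and 33.7 CPM in GF libraries (1.69, adjusted p = 0.000369). The zinc importer slc39a4 had 26.4, 31.9 and 28.3 CPM in chd8-/- libraries, against 11.8, 8.34 and 10.5 CPM in GF libraries (1.50, adjusted p = 0.000585). Against this direction, SLC16A1, a monocarboxylate transporter, fell (-3.13, adjusted p = 0.00195), and was chosen after its value was seen.

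Of 58 cytochrome P450 genes, 19 rose and 4 fell (32.8% and 6.90%, beside 7.01% and 6.67% of all genes). The share that fell was near that of all genes. The higher genes numbered 13, 11 and 13 without chd8-/- replicates 1, 2 and 3 in turn, and 15, 15 and 18 without GF replicates 1, 2 and 3; without GF replicate 3, 7 fell. The intestinal enzyme cyp3a65 had 4425, 4159.9 and 4271 CPM in chd8-/- libraries, against 2413, 2295 and 2418 CPM in GF libraries (0.85, adjusted p = 0.00232). A paralogue, cyp3c3, had 258, 336 and 266 CPM in chd8-/- libraries, against 99.5, 97.8 and 91.6 CPM in GF libraries (1.57, adjusted p = 0.000198). The retinoic-acid-degrading enzyme CYP26A1 went the other way, with 4.74, 4.36 and 5.27 CPM in chd8-/- libraries, against 17.9, 28.8 and 20.1 CPM in GF libraries (log2 fold change -2.22, SE 0.20, adjusted p = 0.000297). The efflux pump abcc2, which exports conjugated compounds, had 1331, 1310.0 and 1298 CPM in chd8-/- libraries, against 592, 623 and 639.8 CPM in GF libraries (log2 fold change 1.09, SE 0.11, adjusted p = 0.000535). The glucuronosyltransferase ugt2b5 had 8.45, 8.65 and 8.94 CPM in chd8-/- libraries, against 40.6, 39.9 and 32.3 CPM in GF libraries (log2 fold change -2.12, SE 0.14, adjusted p = 6.79e-05), with no overlap (beside 17.5% of all genes in this direction). The conjugation list held 12 higher and 10 lower genes of 74. Its higher calls numbered 4, 4 and 5 without chd8-/- replicates 1, 2 and 3 in turn, and 6, 12 and 11 without GF replicates 1, 2 and 3. Its lower calls numbered 5, 7 and 4 without chd8-/- replicates 1, 2 and 3 in turn, and 5, 6 and 10 without GF replicates 1, 2 and 3. Its median (0.08) turned negative with library size only (-0.06).

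Lipid genes split by pathway. Of 50 genes of lipoproteins and lipid absorption, 11 rose and 3 fell (22.0% and 6.0%, beside 7.01% and 6.67% of all genes). The share that fell was near that of all genes. Higher calls numbered 5, 4 and 5 without chd8-/- replicates 1, 2 and 3 in turn, and 8, 9 and 9 without GF replicates 1, 2 and 3. Lower calls numbered 3, 1 and 1 without chd8-/- replicates 1, 2 and 3 in turn, and 1, 1 and 3 without GF replicates 1, 2 and 3. With library size only, 5 rose and 4 fell. CD36, a fatty acid translocase, had 931, 1065 and 885 CPM in chd8-/- libraries, against 371, 385 and 336 CPM in GF libraries (log2 fold change 1.40, SE 0.13, adjusted p = 0.000295). The chylomicron-type apolipoprotein gene apoa4a had 70.7, 69.5 and 53.6 CPM in chd8-/- libraries, against 29.9, 17.5 and 16.3 CPM in GF libraries (1.60, adjusted p = 0.00440). Its paralogue apoa4b.1 did not pass, with 2478, 2438 and 2216 CPM in chd8-/- libraries, against 2648, 2294 and 2092 CPM in GF libraries (0.02, adjusted p = 0.938). Summed over the list, the groups overlapped, with 56230 to 74179 CPM in chd8-/- libraries, against 59207 to 67302 CPM in GF libraries. DGAT1, which forms triglyceride, had 132, 127 and 123 CPM in chd8-/- libraries, against 79.1, 86.0 and 83.6 CPM in GF libraries (0.62, adjusted p = 0.00444). ANGPTL4, an inhibitor of lipoprotein lipase known from germ-free animals, had 186, 142 and 155 CPM in chd8-/- libraries, against 106, 107 and 89.8 CPM in GF libraries (0.67, adjusted p = 0.0113). Its call was lost without chd8-/- replicate 1 (adjusted p = 0.0547).

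Some cholesterol synthesis genes fell: of 32 tested, 1 rose and 13 fell (40.6% lower), with a median of -0.38. Lower calls numbered 7, 9 and 7 without chd8-/- replicates 1, 2 and 3 in turn, and 10, 11 and 15 without GF replicates 1, 2 and 3. HMGCS1, an early enzyme of the mevalonate pathway, had 71.0, 65.6 and 70.5 CPM in chd8-/- libraries, against 189, 139 and 132 CPM in GF libraries (log2 fold change -1.15, SE 0.15, adjusted p = 0.00139). The farnesyl diphosphate synthase FDPS had 18.1, 19.3 and 18.3 CPM in chd8-/- libraries, against 40.2, 34.0 and 33.5 CPM in GF libraries (-0.95, adjusted p = 0.00138). Lanosterol synthase LSS had 6.15, 4.88 and 5.64 CPM in chd8-/- libraries, against 15.8, 14.5 and 11.0 CPM in GF libraries (-1.31, adjusted p = 0.00215). The sterol-sensing regulators srebf2 (-0.11, adjusted p = 0.790) and insig1 (0.07, adjusted p = 0.826) did not pass. Fatty acid oxidation was mixed, with 5 of 43 genes higher and 8 lower. The higher calls numbered 2, 4 and 4 without chd8-/- replicates 1, 2 and 3 in turn, and 4, 6 and 6 without GF replicates 1, 2 and 3. The lower calls numbered 7, 3 and 4 without chd8-/- replicates 1, 2 and 3 in turn, and 5, 6 and 10 without GF replicates 1, 2 and 3. CPT2, of the carnitine shuttle, had 31.8, 28.5 and 27.3 CPM in chd8-/- libraries, against 60.4, 56.6 and 59.9 CPM in GF libraries (-1.02, adjusted p = 0.000649). The receptor gene pparaa had 55.4, 54.8 and 59.4 CPM in chd8-/- libraries, against 34.3, 36.1 and 32.7 CPM in GF libraries (0.72, adjusted p = 0.00264).

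**Figure D4:**
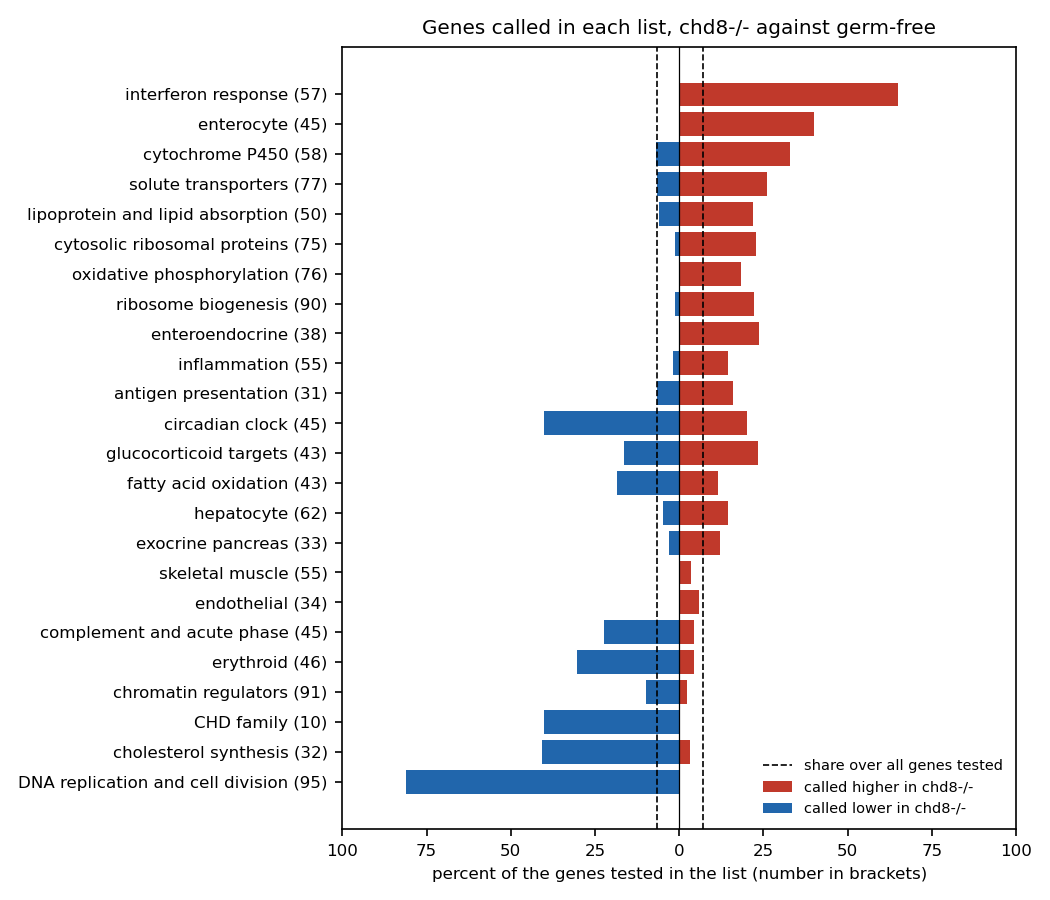
Bars give the percent of each list's tested genes called higher (red, right) and lower (blue, left) in chd8-/- intestines, for 24 of the 50 lists, with the number tested in brackets. Dashed lines mark the shares over all genes tested, 7.01% and 6.67%; the interferon list reaches 64.9% higher and the DNA replication list 81.1% lower.

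Targets of glucocorticoid signalling and of heat shock included some of the largest decreases. FKBP5, a chaperone of the glucocorticoid receptor that the hormone induces, had 25.5, 23.0 and 13.1 CPM in chd8-/- libraries, against 266, 157 and 125 CPM in GF libraries (log2 fold change -3.15, SE 0.37, adjusted p = 0.00304). KLF9, a further hormone-induced factor, had 74.5, 66.1 and 44.0 CPM in chd8-/- libraries, against 182, 131 and 127 CPM in GF libraries (log2 fold change -1.25, SE 0.22, adjusted p = 0.00741). The glycolytic regulator PFKFB4 had 20.9, 20.6 and 19.6 CPM in chd8-/- libraries, against 88.1, 62.2 and 57.8 CPM in GF libraries (-1.77, adjusted p = 0.000321). Both FKBP5 and KLF9 had groups that did not overlap (beside 17.5% of all genes in this direction) and held without any 1 library. The list as a whole did not share this direction: of 43 genes, 10 rose and 7 fell. The higher ones numbered 3, 5 and 6 without chd8-/- replicates 1, 2 and 3 in turn, and 9, 12 and 8 without GF replicates 1, 2 and 3. The lower ones numbered 5, 5 and 5 without chd8-/- replicates 1, 2 and 3 in turn, and 6, 8 and 11 without GF replicates 1, 2 and 3. GADD45B was among the higher genes, with 43.1, 31.9 and 25.7 CPM in chd8-/- libraries, against 9.58, 9.98 and 9.65 CPM in GF libraries in 1 of its 2 IDs (1.79, adjusted p = 0.000535).

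Inducible HSP70 chaperone genes were near absent in chd8-/- intestines. The gene hsp70.3 had 0.224, 0.618 and 0.918 CPM in chd8-/- libraries, against 16.8, 24.9 and 31.4 CPM in GF libraries (log2 fold change -5.38, SE 0.43, adjusted p = 0.000383). Its copy hsp70l had 0.672, 0 and 0.442 CPM in chd8-/- libraries, against 7.80, 23.3 and 13.8 CPM in GF libraries (log2 fold change -5.33, SE 0.86, adjusted p = 0.0120). A further copy, hsp70.1, had 0.384, 0.185 and 0.578 CPM in chd8-/- libraries, against 5.75, 4.73 and 7.67 CPM in GF libraries (-3.98, adjusted p = 0.000478). The related HSPA2 had 1.15, 0.772 and 0.884 CPM in chd8-/- libraries, against 17.3, 12.1 and 23.9 CPM in GF libraries (-4.24, adjusted p = 0.000110). All 4 were among the 14 largest decreases, which were picked from genes whose groups did not overlap, so their separation is not a further result. GF replicate 1 was the lowest of the GF libraries for hsp70l and hsp70.3. The copies are near identical in sequence, so reads could have been shared among them. The call of hsp70l was lost without chd8-/- replicate 3 (adjusted p = 0.0800), and its log2 fold change was -6.11 without chd8-/- replicate 1 and -4.73 without chd8-/- replicate 2. With limma-voom its adjusted p was 0.0514. Over the whole list of immediate early and heat shock genes, 3 of 57 rose and 5 fell (5.26% and 8.77%, beside 7.01% and 6.67% of all genes). Higher members numbered 1, 4 and 1 without chd8-/- replicates 1, 2 and 3 in turn, and 2, 3 and 9 without GF replicates 1, 2 and 3. Lower members numbered 3, 3 and 2 without chd8-/- replicates 1, 2 and 3 in turn, and 4, 5 and 8 without GF replicates 1, 2 and 3.

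Some genes of red blood cells stood lower. Of 46 erythroid genes, 2 rose and 14 fell (30.4% lower). The count of lower genes was 9, 11 and 10 without chd8-/- replicates 1, 2 and 3 in turn, and 11, 8 and 14 without GF replicates 1, 2 and 3. The embryonic globin gene hbae3 had 78.6, 92.2 and 95.1 CPM in chd8-/- libraries, against 212, 247 and 209 CPM in GF libraries (log2 fold change -1.33, SE 0.13, adjusted p = 0.000323). Its relative hbae1.1 had 0.576, 0.216 and 0.408 CPM in chd8-/- libraries, against 6.80, 5.42 and 7.38 CPM in GF libraries (log2 fold change -4.02, SE 0.36, adjusted p = 0.000295), although the hbae1 genes are close copies. The heme synthesis enzyme alas2 had 12.3, 14.6 and 12.8 CPM in chd8-/- libraries, against 36.3, 30.3 and 30.5 CPM in GF libraries (log2 fold change -1.29, SE 0.13, adjusted p = 0.000526). The erythroid factor gata1a had 0.768, 0.958 and 0.748 CPM in chd8-/- libraries, against 1.56, 1.58 and 1.63 CPM in GF libraries and did not pass (-0.94, adjusted p = 0.106). Summed over the list, the level was 1331, 1265 and 1260.1 CPM in chd8-/- libraries, against 1367, 1467 and 1372 CPM in GF libraries.

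Complement and acute phase genes fell in 10 of 45 cases and rose in 2. Lower genes numbered 5, 5 and 6 without chd8-/- replicates 1, 2 and 3 in turn, and 8, 7 and 23 without GF replicates 1, 2 and 3. The gene tep1, counted in this list by its symbol alone, had 4.55, 4.57 and 3.81 CPM in chd8-/- libraries, against 38.1, 26.3 and 29.5 CPM in GF libraries (log2 fold change -2.86, SE 0.18, adjusted p = 5.98e-05). Whether tep1 encodes a complement protein was not checked. Complement factor B (bfb) had 2.66, 3.43 and 2.92 CPM in chd8-/- libraries, against 26.0, 28.6 and 15.8 CPM in GF libraries (log2 fold change -2.96, SE 0.24, adjusted p = 0.000192). The liver protease inhibitor serpina1l had 697, 645 and 498 CPM in chd8-/- libraries, against 1376, 1865 and 1140.0 CPM in GF libraries (-1.25, adjusted p = 0.00447). The C3 copy c3a.1 did not pass, with 1304, 1122 and 935 CPM in chd8-/- libraries, against 1089, 1362 and 743 CPM in GF libraries (0.07, adjusted p = 0.854). Hepatocyte genes as a list held 9 higher and 3 lower of 62, and 12 lower without GF replicate 3. Its higher calls numbered 5, 4 and 5 without chd8-/- replicates 1, 2 and 3 in turn, and 5, 12 and 8 without GF replicates 1, 2 and 3. In the RefSeq gene order, tep1 lies 14 protein-coding genes from chd8. Of 33 tested genes among the 25 nearest on each side, 0 rose (beside 7.01% of all genes; 4 at an unadjusted p under 0.05 in edgeR, 2 in DESeq2 and 1 in limma-voom) and 3 fell (beside 6.67% of all genes) at an adjusted p under 0.05: tep1, PARP2 (log2 fold change -0.59, adjusted p = 0.0468) and hbl4 (-1.29, adjusted p = 0.0487). That gene order comes from a later assembly than the one used for counting, and was used for order alone.

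**Figure D5:**
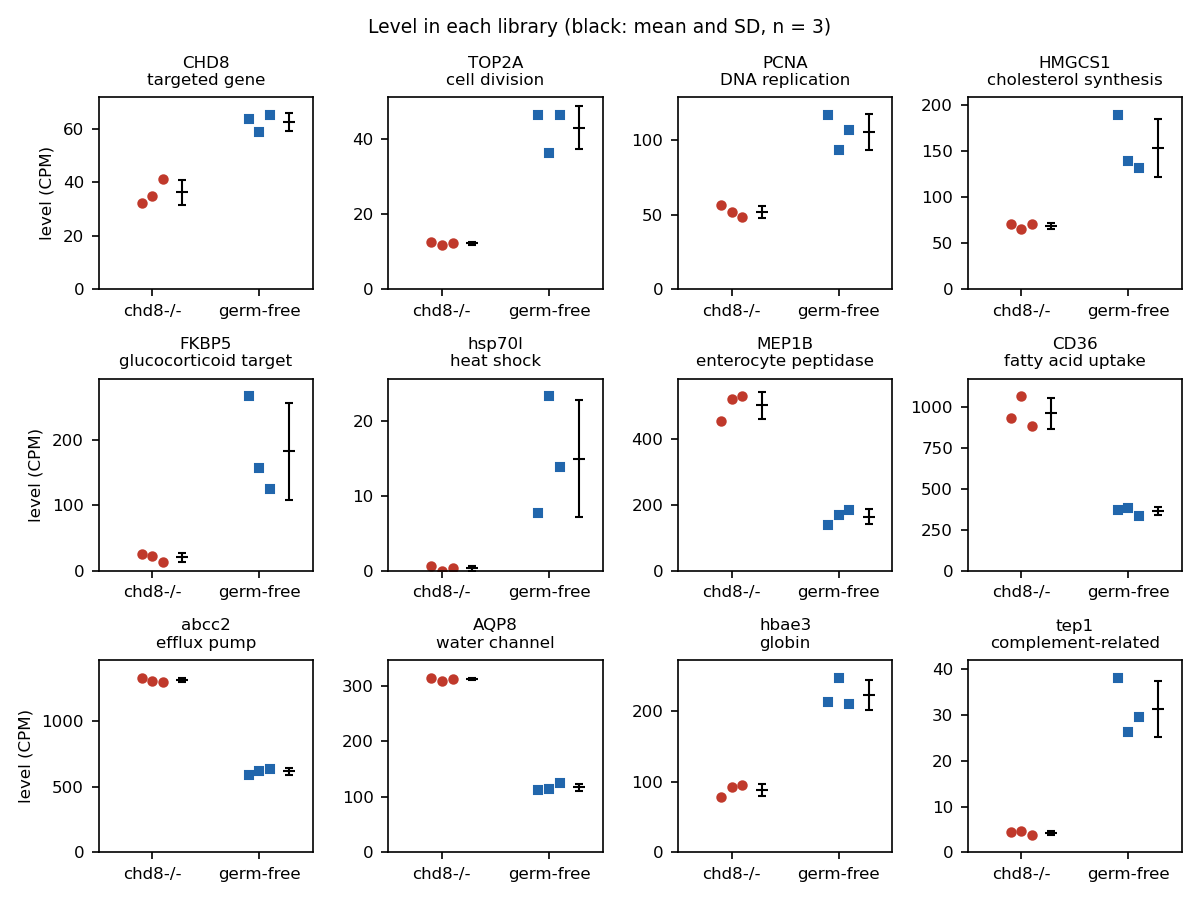
Levels (CPM, linear axes from 0) of 12 genes in each library, with chd8-/- (red circles) left of germ-free (blue squares) and the mean and SD of 3 in black. CHD8, TOP2A, PCNA, HMGCS1, FKBP5, hsp70l, hbae3 and tep1 are lower in chd8-/- intestines, and MEP1B, CD36, abcc2 and AQP8 are higher, with no overlap of the groups in any of the 12. Most of the 12 were named for a small adjusted p in their list, and hsp70l also by a rule that required no overlap. Their separation is therefore not a further result, and 35.0% of all genes tested did not overlap. The panel label of tep1 rests on its symbol alone, and whether it encodes a complement protein was not checked.

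A few genes were present in 1 group and near absent in the other. Among called genes, 29 had 0 counts in every chd8-/- library (18 of them with a mean of at least 1 CPM in GF), and 9 had 0 counts in every GF library (7 with at least 1 CPM in chd8-/-). The gene si:ch211-1k7.1 had 0 CPM in each chd8-/- library, against 5.96, 9.75 and 9.27 CPM in GF libraries, which makes it at least 258-fold lower when 3 counts over the group are taken as the floor. A single read was counted for si:ch73-329n5.6 over the chd8-/- libraries, against a mean of 24.5 CPM in GF libraries, a ratio of 2280.0 with a 95% Poisson interval from 409 to 90050.0 that covers counting error only. The pancreas-list gene zgc:92590 had 0.192, 0 and 0.272 CPM in chd8-/- libraries, against 56.4, 61.2 and 34.5 CPM in GF libraries (log2 fold change -8.36, SE 0.52, adjusted p = 0.000193). In that list 4 genes of 33 rose (12.1%, beside 7.01% of all genes), 9 without GF replicate 2, and among them the elastase gene cela1.2 had 53.0, 45.7 and 37.3 CPM in chd8-/- libraries, against 12.8, 20.3 and 12.3 CPM in GF libraries (1.58, adjusted p = 0.00236). The yolk precursor vtg7 had 0.640, 0.587 and 1.02 CPM in chd8-/- libraries, against 10.5, 15.2 and 12.2 CPM in GF libraries (-4.08, adjusted p = 8.71e-05). Its relative vtg1 did not pass (-1.25, adjusted p = 0.114). In the opposite direction tas1r3, a taste receptor subunit, had 7.11, 10.4 and 10.3 CPM in chd8-/- libraries, against 0.0809, 0.361 and 0.116 CPM in GF libraries (log2 fold change 5.65, SE 0.45, adjusted p = 0.000192). Without GF replicate 2 that log2 fold change was 6.51. Without chd8-/- replicate 2, the log2 fold change of zgc:92590 was -7.75, and without chd8-/- replicate 3 it was -9.01.

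Some genes for making ribosomes and for respiration were called higher. Of 90 ribosome biogenesis genes, 20 rose and 1 fell, leaving 69 that missed the threshold. The higher calls numbered 2, 6 and 4 without chd8-/- replicates 1, 2 and 3 in turn, and 12, 13 and 13 without GF replicates 1, 2 and 3, and 7 with library size only. DDX56, a helicase of large-subunit assembly, had 34.4, 35.4 and 33.0 CPM in chd8-/- libraries, against 24.8, 21.9 and 21.4 CPM in GF libraries (0.59, adjusted p = 0.00989). Among 75 cytosolic ribosomal protein genes 17 rose and 1 fell, leaving 57. Higher ones numbered 3, 11 and 3 without chd8-/- replicates 1, 2 and 3 in turn, and 7, 12 and 17 without GF replicates 1, 2 and 3. Library size only gave 8, and DESeq2 gave 29. RPL12 had 2059, 1809 and 1726 CPM in chd8-/- libraries, against 825, 1039 and 777 CPM in GF libraries (1.08, adjusted p = 0.00201). Of 76 nuclear genes of oxidative phosphorylation, 14 rose and none passed as lower in edgeR (1 at an unadjusted p under 0.05), against 1 with library size only, 1 with DESeq2 and 0 with limma-voom. The number that rose was 2, 10 and 4 without chd8-/- replicates 1, 2 and 3 in turn, and 6, 8 and 19 without GF replicates 1, 2 and 3. Library size only gave 5, and DESeq2 gave 26. The complex I subunit NDUFS3 had 86.8, 75.3 and 82.0 CPM in chd8-/- libraries, against 45.0, 46.3 and 48.4 CPM in GF libraries (0.80, adjusted p = 0.00159), with no overlap (beside 17.5% of all genes in this direction). These counts moved more with the library left out and with the scaling than those of the interferon, clock or enterocyte lists.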

How the data were processed

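Gene counts of intestine RNA-seq libraries were analysed, 3 chd8-/- and 3 GF. Per the submitters' processing notes, the authors used Trim Galore 0.6.7, FastQC 0.11.9, STAR 2.7.9a and featureCounts of Subread 2.0.1 with the GRCz11 build; the deposited values are raw counts per gene, and strand and multimapping settings: not given in the sources used here. The groups stand in 2 deposited tables, each with the same 3 conventional libraries under other numbers. Those libraries had equal counts in 72.8% to 80.9% of genes. Their absolute differences per gene summed to 0.0745% to 0.228% of the library total, so the tables were made by slightly different counting. For 4 called genes the conventional counts differed by over 10%. The conventional libraries entered no test.

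Counts were joined by gene ID, filtered with filterByExpr, scaled with TMM and tested in edgeR 4.0.16 (R 4.3.3; quasi-likelihood F-test, robust, 6 libraries, Benjamini-Hochberg over all genes). The SE is the log2 fold change over the square root of F. Fits were tested on simulated data. Alternatives were RLE or library-size scaling, other filters, DESeq2 1.42.0, limma-voom 3.58.1, a replicate block, and each library left out. Replicate pairs differed beyond counting noise (chi-square per degree of freedom 26.0 to 66.2). Symbols, in capitals where the table gives a human-style name, matched 29201 of 32520 IDs; list symbols with no match were looked up without their copy letter. Named genes were chd8, the 14 largest called changes in each direction (groups apart, at least 5 CPM), up to 4 called genes of smallest adjusted p per list, and a fixed set that included duox, isg15 and il1b. The comparison, the 50 gene lists and the rule were chosen with earlier results of these data known. Some results are not reported here.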

Additional observations from a re-analysis of the deposited data

How the results depend on the processing

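The count of 2862 genes was 2859 with RLE size factors, 2669 with no filter on low counts, 2903 with a stricter filter, 3796 with DESeq2, 2846 with limma-voom and 2860 after genes counted differently in the 2 tables were left out. Library size as the only scaling gave 3208 genes, split into 938 higher and 2270 lower, and it took the medians of the conjugation, hepatocyte and some other lists across 0. With 1 library left out, the number called ran between 1328 and 3702, the number higher between 701 and 1752, the number lower between 602 and 1950, and the number at 2-fold or more between 848 and 1557. Of 180 named genes called, 129 kept their call in each of those 6 fits and 51 lost it in at least 1. Direction turned for 2 named genes that had not passed: il1b, between -0.59 and 0.11 with 1 library left out, had 0.11 without chd8-/- replicate 2 (adjusted p = 0.919), and c3a.1, between -0.14 and 0.30, had -0.070 with library size only, -0.05 without chd8-/- replicate 1 and -0.14 without GF replicate 3. The cause of these changes was not tested. The replicate numbers are shared labels with nothing to say that they pair samples: same-numbered deviations from the group means correlated at 0.029, -0.04 and 0.057. A replicate block gave 2957 genes, 1549 higher and 1408 lower, with 2562 of the 2862 among them. With 3 libraries in each group, small changes of low genes may go uncalled.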

Other observations

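Some further genes not named above differed with no overlap (beside 35.0% of all genes tested). Most were named for a small adjusted p in their list, so their separation is not a further result. The 2 sodium pump genes below belong to the pronephros list and foxi3a to the skin list, so they are part of the sums given for those lists. The sodium pump subunit atp1a1a.3 had 32.4, 38.8 and 36.8 CPM in chd8-/- libraries, against 185, 154 and 126 CPM in GF libraries (log2 fold change -2.11, SE 0.16, adjusted p = 0.000120). Its copy atp1a1a.4 had 2726, 3125 and 2668 CPM in chd8-/- libraries, against 1646, 1909 and 1587 CPM in GF libraries (0.73, adjusted p = 0.00826). The ionocyte factor foxi3a had 42.6, 27.4 and 34.1 CPM in chd8-/- libraries, against 15.0, 14.2 and 17.0 CPM in GF libraries (1.17, adjusted p = 0.00256). The aryl hydrocarbon receptor gene ahr1a had 2.11, 1.48 and 1.80 CPM in chd8-/- libraries, against 7.80, 7.62 and 7.61 CPM in GF libraries (-2.09, adjusted p = 0.000510). NOS1, the nitric oxide synthase of inhibitory enteric neurons, had 33.7, 32.6 and 31.6 CPM in chd8-/- libraries, against 74.2, 64.4 and 64.4 CPM in GF libraries (log2 fold change -1.05, SE 0.11, adjusted p = 0.000535). VIP, of the same enteric neuron and glia list, went the other way (0.82, adjusted p = 0.0120), but lost its call without chd8-/- replicate 1 or chd8-/- replicate 2. Of 32 genes tested in that list, 1 rose and 2 fell (beside 7.01% and 6.67% of all genes). The median log2 fold change of the list was -0.67, and 0.15 without GF replicate 3.

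Hormone genes of enteroendocrine cells rose in 9 of 38 cases, and 0 fell in edgeR, DESeq2 or limma-voom, or at an unadjusted p under 0.05 in edgeR. The number called higher was 2, 2 and 4 without chd8-/- replicates 1, 2 and 3 in turn, and 3, 5 and 11 without GF replicates 1, 2 and 3. The insulin-like peptide gene insl5a had 16.5, 19.1 and 16.2 CPM in chd8-/- libraries, against 10.5, 8.70 and 8.40 CPM in GF libraries (0.91, adjusted p = 0.00468). Its call held in each fit without 1 library. The other 8 calls were each lost in at least 1 of those fits. The lipid-transfer gene NPC2, under 1 of its 2 IDs, had 0.512, 1.24 and 0.884 CPM in chd8-/- libraries, against 7.07, 9.39 and 9.30 CPM in GF libraries (-3.28, adjusted p = 0.000372). The selenoprotein gene selenol had 16.6, 13.9 and 15.9 CPM in chd8-/- libraries, against 3.75, 0.985 and 2.09 CPM in GF libraries (2.75, adjusted p = 0.00492). The deiodinase DIO1, which activates thyroid hormone, had 92.2, 86.1 and 89.5 CPM in chd8-/- libraries, against 45.9, 45.2 and 51.6 CPM in GF libraries (0.91, adjusted p = 0.000895).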
